A study of Zea mays with 2 samples.

Results

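The loci described here gave no signal in either of the maize endosperm libraries compared in this study. Each is a listed row on chromosomes 1 to 10 with a value of 0 in both libraries and a genomic span (end minus start) of 500 bp or more, and 2158 of the 12140 rows met these conditions. They are called silent below, in the sense that they were listed at 0 in both libraries. The members were chosen by their FPKM values in these libraries, so the zeros are a description and support nothing further. An exact 0 in a list of estimated values can also be a failed estimate.

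RNA was sequenced from endosperm, the kernel tissue that stores starch and protein, 15 days after pollination. The wild type (WT) and the kernel mutant rea1 each have 1 library in the data analysed here, although the series' design text speaks of triplicates, so replicate error is unknown and no p-values are given. Whether a value comes from a single library, a pool or a mean is not stated. The gene behind rea1 is known from the study as a midasin homologue, and midasin is an ATPase needed to build large ribosomal subunits. The values are FPKM, fragment numbers corrected for transcript length and for the size of the library, and no read counts were analysed. Loci carry a chromosome, a start and an end but no gene name, so the tissue label could not be checked against marker genes and no sequence or gene function could be attached to a locus. Coordinates belong to a build not given in the sources used here. Starts are printed counting from 1, on the reading that the files count them from 0, so each start and span could be off by 1 bp.

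Endosperm at this age is filling with starch and storage protein, and a large part of its messenger RNA comes from a small number of storage protein genes. A gene without transcripts in such a tissue may be active in leaf, root, anther or embryo, or at another age. In maize, genes lie densely toward the ends of the chromosome arms and sparsely around the centromeres, where repeats fill most of the sequence. Maize gene models also include fragments and copies carried by transposable elements, which are often short. Of these features, only the density and the span of listed loci could be read from the listed coordinates. Activity in other tissues, centromeres, repeats and copies carried by transposable elements could not.

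Among the 10915 loci of 500 bp or more on the chromosomes, the 2158 silent loci made up 19.8%. At the other end, 4591 loci (42.1%) had 1 FPKM or more in both libraries and are called expressed. The remaining 4166 loci are called intermediate, since they were above 0 in at least 1 library without reaching 1 FPKM in both. Of the 1212 shorter loci, which were left out, 561 (46.3%) were listed at 0 in both. Intervals given below are 95% intervals over loci, which treat loci as independent and are no measure of replicate error.

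Most loci without signal in 1 library had none in the other. In rea1, 3070 loci (28.1%) were listed at 0, and 70.3% of them (95% Wilson interval 68.7 to 71.9) were also at 0 in WT. In WT, 3142 loci (28.8%) were listed at 0, of which 68.7% (67.0 to 70.3) were also at 0 in rea1. Loci at 0 in a single library mostly had a low value in the other. The 912 loci at 0 in rea1 alone had a median of 0.230 FPKM in WT, and 115 of them reached 1 FPKM. The 984 loci at 0 in WT alone had a median of 0.216 FPKM in rea1, and 99 of them reached 1 FPKM. Only 6 of the former and 3 of the latter reached 10 FPKM.

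For loci of a few kb the limit between silent and barely detected is fine-grained, while the lowest values of shorter loci were higher, as given below. The 5 lowest mean values above 0 in both libraries belonged to loci of 4012 to 7208 bp. The lowest of them, on chromosome 8 at 40951929 to 40958782, was listed at 0.030 FPKM in rea1 and 0.00011 FPKM in WT, and it shares its position with another row. Next came the locus on chromosome 6 at 160965405 to 160969416, with 0.020 FPKM (rea1) and 0.028 FPKM (WT). On the span limit, the smallest silent loci were 500 bp long, at 230403834 to 230404333 of chromosome 2 and 152621740 to 152622239 of chromosome 4. Just outside it lay loci of 499 bp at 59390280 to 59390778 of chromosome 1 and 16042683 to 16043181 of chromosome 8, also listed at 0 in both libraries.

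Silent loci were short. Their median span was 1491 bp (1422 to 1574, n = 2158), against 3829 bp (3735 to 3920, n = 4591) for expressed loci, a 2.57-fold difference. Intermediate loci lay between, with a median of 2086 bp (2023 to 2168, n = 4166). Spans under 2000 bp made up 62.2% of silent loci and 23.2% of expressed loci. The fold depends on the span limit, and with a minimum of 2000 bp it was 1.28.

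Spans are given below in classes that include their lower limit. The silent share fell with span and then rose again among the longest loci. It was 36.7% (34.5 to 38.9) of 1850 loci of 500 to 1000 bp and 26.0% (24.4 to 27.8) of 2552 loci of 1000 to 2000 bp. At 2000 to 5000 bp it was 13.9% (12.9 to 15.1) of 3820 loci, and at 5000 to 15000 bp it was 8.43% (7.32 to 9.70) of 2087 loci. At 15000 bp or more, 107 of 606 loci were silent, or 17.7% (14.8 to 20.9). The expressed share ran the other way, from 19.8% in the shortest class to 64.7% at 5000 to 15000 bp, and was 48.3% at 15000 bp or more.

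**Figure D1:**
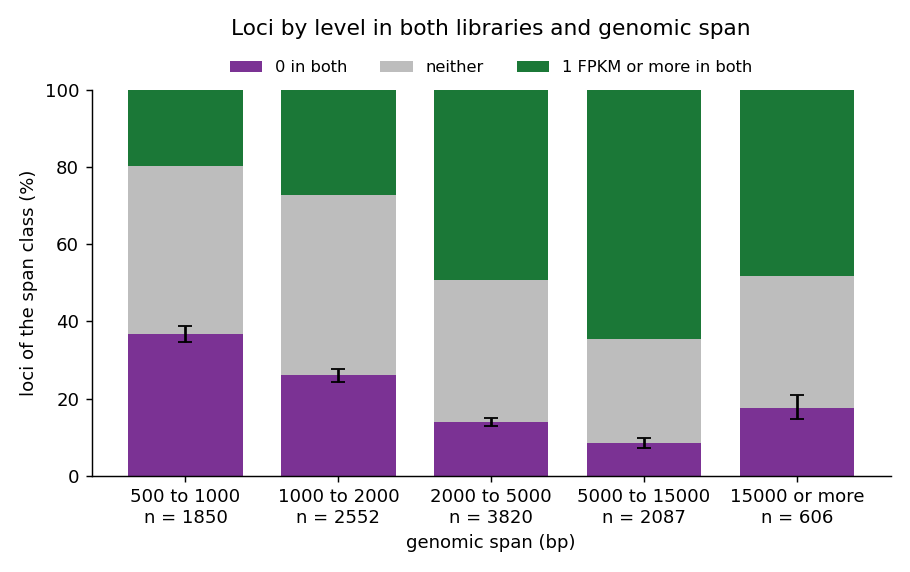
Percentage of loci (vertical axis) listed at 0 in both libraries (purple), at 1 FPKM or more in both (green) or in neither group (grey), by genomic span in bp (horizontal axis, number of loci under each bar). Black bars are 95% Wilson intervals of the silent share, which falls from 36.7% at 500 to 1000 bp to 8.43% at 5000 to 15000 bp and is 17.7% at 15000 bp or more.

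The lowest listed values moved with span as well. At the bottom of the values above 0, the lowest 2% ended at 0.127 FPKM (rea1) and 0.149 FPKM (WT) at 500 to 1000 bp, but at 0.044 and 0.055 at 2000 to 5000 bp. A limit of 0.15 FPKM in both libraries, set after these values were seen, puts the classes on a more even footing. Below it lay 38.9% (36.7 to 41.1) of loci of 500 to 1000 bp and 37.3% (35.4 to 39.2) of loci of 1000 to 2000 bp, so the step between these classes was no longer larger than the intervals. The lower shares at longer spans remained, with 23.4% (22.1 to 24.8) at 2000 to 5000 bp and 15.0% (13.6 to 16.6) at 5000 to 15000 bp. The longest loci again stood higher, at 30.7% (27.2 to 34.5).

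The higher silent share of very long loci was also found at positions listed once. Of 437 such loci of 15000 bp or more, 75 were silent, or 17.2% (13.9 to 21.0), against 136 of 1709, or 7.96% (6.77 to 9.34), at 5000 to 15000 bp. Within the long range the share was 15.1% (11.9 to 19.0) of 397 loci of 15000 to 30000 bp and 23.0% (17.0 to 30.3) of 152 loci of 30000 to 60000 bp, all rows included. Of 57 loci of 60000 bp or more, 12 were silent, or 21.1% (12.5 to 33.3), again with all rows included. At positions listed once, 5 of 35 loci of this span were silent, or 14.3% (6.26 to 29.4). That interval overlaps the one at 5000 to 15000 bp for positions listed once. At shared positions 7 of 22 rows were silent, or 31.8% (16.4 to 52.7). For positions listed once the share was 15.3% at 15000 to 30000 bp and 23.1% at 30000 to 60000 bp. The longest silent span was 150713 bp, at 165830871 to 165981583 of chromosome 1, where 2 of 4 rows were listed at 0 in both libraries. Next was a row of 136767 bp at 105681405 to 105818171 of chromosome 5, which shares its position with another row. The longest silent loci listed once covered 114407 bp at 171759408 to 171873814 and 98191 bp at 204959111 to 205057301, both on chromosome 1. Span includes introns, so it does not give the length of a transcript.

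Rows that share a position show what was listed beside a 0. Of the 2158 silent rows, 121 (5.61%) lay at a position listed more than once, against 8.65% of expressed rows. At 28 of the 121 every row of the position was silent, whereas 93 had a partner row above 0. The partner reached 1 FPKM in both libraries for 45 of them and 10 FPKM for 20. Over all loci of 500 bp or more, 19.8% were at 0 in both libraries and 42.1% at 1 FPKM or more in both. Partners above 0 are thus common among loci in general, and these counts are no trait of silent rows. The highest partner lay on chromosome 9 at 13169628 to 13180826, where 1 row reached 123 FPKM (rea1) and 115 FPKM (WT) and the other was listed at 0 in both. On chromosome 8, at 6855469 to 6860408, the partner had 64.8 FPKM in rea1 and 71.0 FPKM in WT. No 2 distinct positions overlapped anywhere in the list, so such rows are the only ones that cover the same stretch of genome. Whether their zeros are absent transcripts or fragments assigned to the partner was not tested.

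Among short loci, silent and expressed members differed in how often end minus start was a multiple of 3. Gene models without untranslated regions and introns have a span that is a multiple of 3, the length of a codon. The files do not say whether starts count from 0 or from 1. An excess of such multiples is itself the reason for reading them as counting from 0, so its presence is no finding, and what follows compares the classes under that reading. At 500 to 1000 bp, 314 of 679 silent loci had a span divisible by 3, or 46.2% (42.5 to 50.01). The share was 37.1% (32.3 to 42.1) of 367 expressed loci and 47.0% (43.6 to 50.5) of 804 intermediate loci, and the intervals of silent and intermediate loci overlap. At 1000 to 2000 bp the silent share was 38.4% (34.8 to 42.2) and the expressed share 34.4% (31.0 to 38.0), with overlapping intervals. At 2000 to 5000 bp it was 31.2% among silent and 33.4% among expressed loci. If starts counted from 1, multiples of 3 would be the loci whose end minus start leaves a remainder of 2. At 500 to 1000 bp these were 28.1% (24.9 to 31.6) of silent and 32.7% (28.1 to 37.7) of expressed loci, with overlapping intervals.

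Every chromosome held silent loci at a broadly similar rate. The silent share ran from 17.5% (15.4 to 19.9) of 1112 loci on chromosome 5 to 22.1% (19.8 to 24.6) of 1145 loci on chromosome 4. Chromosome 1, with the most loci, had 17.7% (16.0 to 19.5) of 1789, and chromosome 9, with the fewest, had 22.0% (19.2 to 25.03) of 782. Chromosomes 2, 3, 6, 7, 8 and 10 lay between 18.2% and 21.6%. The mix of span classes alone would give shares from 19.0% to 20.2% across the chromosomes. These expected shares carry no sampling error, unlike the observed ones, so the widths of the 2 ranges cannot be compared. Whether chromosomes differ beyond their span classes was not tested. Chromosome 9 lay 2.63 percentage points above the share its span classes would give, and chromosome 1 differed from its share by -2.05 points. Chromosome 4 contributed 11.7% of all silent loci and 9.54% of all expressed loci, and chromosome 1 contributed 14.6% and 17.3%.

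Along the chromosomes, silent loci took a larger share of the loci in the middle than at the ends. With each chromosome divided into 10 equal segments of its listed extent, the silent share was 16.9% (15.1 to 18.8) in segment 1 and 18.1% (16.4 to 19.9) in segment 10, and reached 23.2% (19.8 to 26.9) in segment 5. Segments 4 to 7 together held 634 silent loci of 2815, or 22.5%, against 616 of 3520, or 17.5%, in segments 1 and 10. The difference was 5.02 percentage points (95% Newcombe interval 3.04 to 7.02), and it was above 0 on 10 of 10 chromosomes, from 1.56 points on chromosome 8 to 9.38 on chromosome 7. The interval of the single chromosome lay above 0 for chromosomes 1, 3, 5 and 7. The expressed share was 46.8% in segment 1 and 46.9% in segment 10, lowest in segment 3 at 32.5%, and 34.4% in segment 5.

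**Figure D2:**
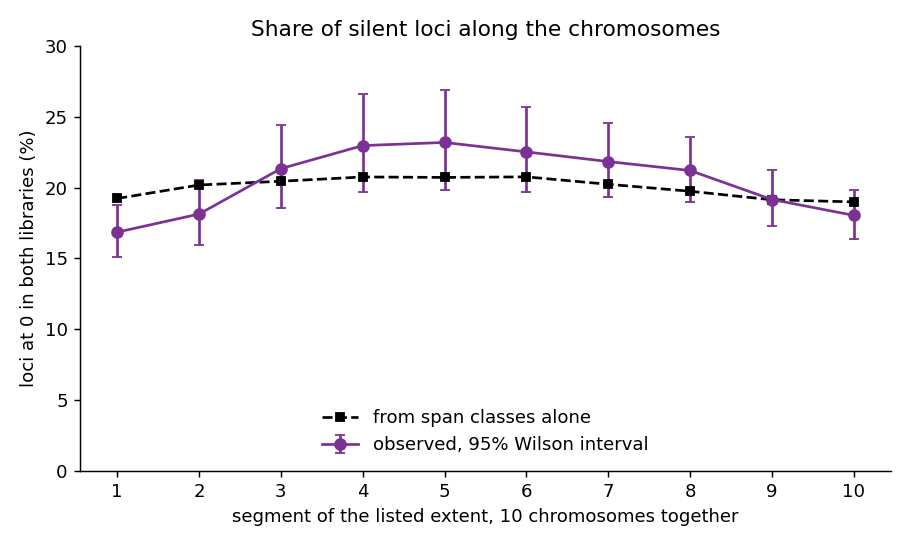
Percentage of loci at 0 in both libraries (vertical axis) by segment of the listed chromosome extent (horizontal axis), over 10 chromosomes. Points with bars are observed shares with 95% Wilson intervals and squares are the shares that the span classes of each segment would give. Observed shares run from 16.9% in segment 1 to 23.2% in segment 5, and the span classes alone give 19.0% to 20.8%. The latter carry no sampling error, so the widths of these ranges cannot be compared.

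Loci in the middle were also somewhat shorter, with a median span of 2287 to 2398 bp in segments 4 to 7 against 2676 and 2796 bp in segments 1 and 10. The span classes of the loci would by themselves put the silent share between 19.0% and 20.8% in every segment. These expected shares carry no sampling error, so the width of their range cannot be set against the observed one. Observed minus expected was 1.94 points in segments 4 to 7 together and -1.61 points in segments 1 and 10. Within span classes the middle exceeded the ends by 5.57 points (1.11 to 10.03) at 1000 to 2000 bp and by 4.50 points (1.55 to 7.56) at 2000 to 5000 bp. At 500 to 1000 bp no such difference was seen, with 35.2% silent in the middle and 35.6% at the ends (difference -0.39 points, -6.11 to 5.33). At 5000 to 15000 bp and at 15000 bp or more the differences were 2.65 and 6.71 points, with intervals that include 0.

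Silent loci lay farther from other listed loci. For this comparison rows of 1 position were joined, which left 2051 positions (19.6% of 10485) with all rows silent and 4292 (40.9%) with all rows expressed. The median gap from a silent position to the nearest listed position of any span was 27.6 kb (23.1 to 32.8), against 11.5 kb (9.97 to 13.3) for expressed positions, a 2.40-fold difference. Intermediate positions had a median of 20.5 kb (18.1 to 22.9). A listed neighbour within 5 kb was found for 27.7% (25.8 to 29.7) of silent and 41.0% (39.6 to 42.5) of expressed positions. No neighbour within 100 kb was found for 25.9% (24.0 to 27.8) and 19.4% (18.2 to 20.6). The list holds 11697 positions of all spans on the chromosomes, and genes that are not listed do not enter these gaps.

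**Figure D3:**
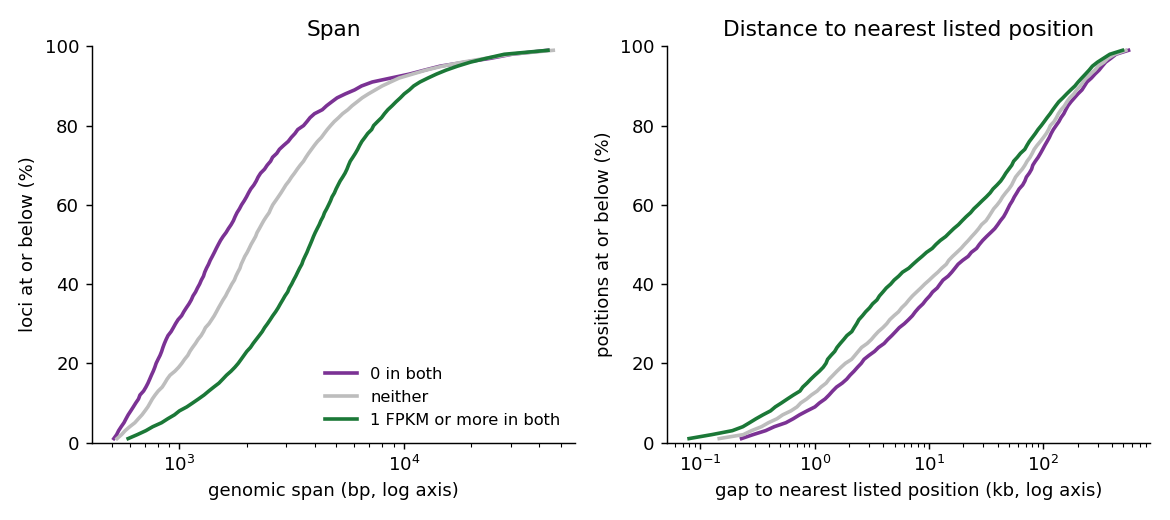
Cumulative percentage (vertical axes) of loci by genomic span in bp (left) and of positions by gap in kb to the nearest listed position (right), both on log axes, for silent (purple), intermediate (grey) and expressed (green) members. Medians are 1491 bp and 27.6 kb for silent and 3829 bp and 11.5 kb for expressed members, and the gap curves draw together at the largest distances.

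The wider gaps were seen at matched span. At 2000 to 5000 bp the median gap was 23.3 kb (17.7 to 30.4) for 510 silent and 7.68 kb (6.21 to 9.44) for 1818 expressed positions. At 1000 to 2000 bp it was 24.4 kb (17.1 to 33.97) and 12.3 kb (8.94 to 16.8). At 500 to 1000 bp it was 28.8 kb (20.2 to 38.2) and 15.2 kb (10.3 to 22.6), with intervals that overlap. The intervals also overlapped at 5000 to 15000 bp and at 15000 bp or more. The most isolated silent position, at 106490672 to 106492042 of chromosome 4, had no listed locus within 1365 kb. The next were at 66841623 to 66845737 of chromosome 9 and 86619256 to 86619830 of chromosome 3, with gaps of 1069 and 942 kb.

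Local density gave the same order. Loci with 0 or 1 other position within 250 kb on either side were silent in 23.2% (21.5 to 25.1) of 2136 cases. With 2 to 3 positions the share was 20.9% (19.6 to 22.4), with 4 to 6 it was 18.5% (17.2 to 19.9) and with 7 to 10 it was 16.6% (15.0 to 18.4). In the densest surroundings, with 11 or more positions, 17.6% (14.7 to 20.9) of 569 loci were silent. Median span hardly moved across the first 4 of these classes, from 2540 to 2574 bp. Density and place along the chromosome move together in maize, and their parts in the silent share cannot be told apart from these counts.

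The next locus along the chromosome was slightly more often silent beside a silent position than beside an expressed one. Over positions of 500 bp or more, 20.8% (19.6 to 22.0) of the next positions on either side of a silent position were silent, against 18.1% (17.3 to 18.9) beside an expressed position. The difference was 2.73 percentage points (1.26 to 4.23). Each pair is read from both sides, so these intervals are too narrow. The difference was 1.97 points (0.16 to 3.93) with a minimum span of 2000 bp, 4.46 points when values below 0.1 FPKM in both libraries counted as silent, and 5.63 points with a limit of 0.15 FPKM. It was above 0 on 6 of 10 chromosomes, with 7.91 points (3.26 to 12.7) on chromosome 4 and -2.76 points (-6.94 to 1.86) on chromosome 5. At least 1 silent neighbour was found for 36.4% of silent, 36.4% of intermediate and 33.0% of expressed positions. Having silent neighbours more often than expressed positions was thus not particular to silent positions.

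The difference between silent and expressed positions was largest at the shortest gaps. Where the gap was under 5 kb, the next position was silent for 20.2% (17.2 to 23.7) of 593 neighbours of silent positions and 12.3% (10.9 to 13.8) of 1925 neighbours of expressed positions, 7.98 points apart (4.57 to 11.7). At gaps of 5 to 20 kb the shares were 19.0% and 20.6%, at 20 to 100 kb 21.0% and 18.5%, and at 100 kb or more 21.3% and 20.2%. Each of these differences had an interval that includes 0, and the gap classes were not tested against each other. Beside silent positions the share thus lay between 19.0% and 21.3% at every gap. Beside expressed positions it was lower under 5 kb than at wider gaps. The silent share of all close neighbours together was not computed, so neither side can be called raised or lowered against it. Nor was the share beside intermediate positions computed by gap. Of the close neighbours of expressed positions, 53.4% were themselves expressed, against 39.8% of the close neighbours of silent positions. The limit of 5 kb is the lowest gap class, and it was singled out after the values were seen.

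**Figure D4:**
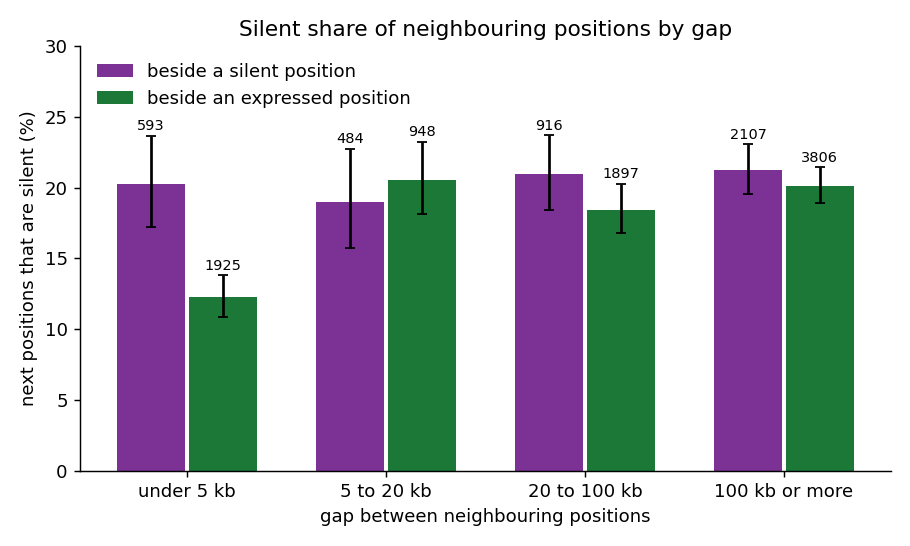
Percentage of neighbouring positions that are silent (vertical axis) by the gap to them (horizontal axis), beside silent (purple) and expressed (green) positions. Intermediate positions are not drawn. Bars are shares, black lines 95% Wilson intervals and the numbers above them the neighbours counted. Under 5 kb the shares are 20.2% and 12.3%, and from 5 kb upward they lie between 18.5% and 21.3%.

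At gaps under 5 kb the silent share was higher beside silent positions in each of 4 combinations of span. For pairs in which both positions were under 2000 bp and closer than 5 kb, the next position was silent for 30.9% (24.5 to 38.1) of 175 neighbours of silent and 19.0% (14.0 to 25.3) of 184 neighbours of expressed positions. For pairs in which both were 2000 bp or more, the shares were 12.0% (6.999 to 19.8) of 100 and 5.86% (4.54 to 7.53) of 956. Pairs of a shorter and a longer position differed by 4.62 points (-0.38 to 9.80) where the shorter was counted from and by 11.1 points (0.59 to 22.9) where the longer was. Both of these mixed combinations rest on the same 27 silent pairs, so they are not separate evidence. Across chromosomes the short-range difference was above 0 on 6 of 10. It was largest on chromosomes 7 and 4, at 20.9 and 20.8 points, and lay between -3.76 and -1.22 points on chromosomes 3, 5, 8 and 10.

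A pair of positions on chromosome 3 shows how close the extremes can lie. The expressed locus with the highest mean level among those with silent neighbours on both sides, at 213704747 to 213708471, had 368 FPKM in rea1 and 437 FPKM in WT. A silent locus of 567 bp ended 0.450 kb before it, at 213703730 to 213704296. The next locus of 500 bp or more after the expressed one, at 213855806 to 213856341, was silent as well but lay much farther off. In all, 130 expressed positions had silent neighbours on both sides, and their median mean level was 8.98 FPKM (6.35 to 11.9). The median was 8.59 FPKM (7.87 to 9.35) for the 1288 with 1 silent neighbour and 8.49 FPKM (7.95 to 9.07) for the 2874 with none, and these intervals overlap.

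Long runs of silent loci were few. Of all positions of 500 bp or more, 19.6% were silent, and the runs that this share alone would give were not computed. Of the 2051 silent positions, 1305 (63.6%) had a locus that was not silent, or the end of the list, on each side. The other 746, or 36.4% (34.3 to 38.5), had at least 1 silent neighbour, and so did 33.0% (31.6 to 34.5) of expressed and 36.4% (34.9 to 37.9) of intermediate positions. Silent loci lay on both sides of 5.17% (4.29 to 6.21) of silent, 3.03% (2.56 to 3.59) of expressed and 4.79% (4.16 to 5.50) of intermediate positions. There were 244 runs of 2 positions, 50 of 3, 23 of 4, 2 of 5 and 1 of 6. The 76 runs of 3 or more held 258 positions, or 12.6% of the silent positions. Their share was highest on chromosomes 9 and 4, at 19.9% and 18.6% of the silent positions of the chromosome, and lowest on chromosome 5, at 7.53%.

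Runs differed widely in extent. They were read over listed positions of 500 bp or more, so genes that are not listed may lie inside them. Runs of 3 or more had a median extent of 347 kb, from 11.9 to 2838 kb. Of the 76, 26 began in segments 4 to 7 (34.2%), which held 29.4% of all silent positions, and 23 began in segments 1 or 10. The median span was 1441 bp for positions in these runs and 1422 bp for silent positions without a silent neighbour, so the members of runs were of ordinary span for silent loci.

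The longest run held 6 positions over 1216 kb, from 138630423 to 139846245 of chromosome 4. Its loci were 523, 2072, 734, 1522, 5620 and 1613 bp long, and no locus under 500 bp lay between them. The locus before it, at 138627640 to 138630166, stood at 0.354 FPKM in rea1 and at 0 in WT, and the locus after it had 1.07 and 0.740 FPKM. The run of 5 positions from 109601951 to 110927584 of chromosome 1 covered 1326 kb and was bounded by expressed loci, at 12.0 FPKM (rea1) and 13.2 FPKM (WT) before it and 20.5 and 25.3 FPKM after it. The other run of 5, from 74338760 to 76083689 of chromosome 4, covered 1745 kb. Before it lay a locus at 53.5 FPKM (rea1) and 34.5 FPKM (WT), and the next listed locus after it, at 78327814 to 78331281, had 1.26 and 0.354 FPKM.

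**Figure D5:**
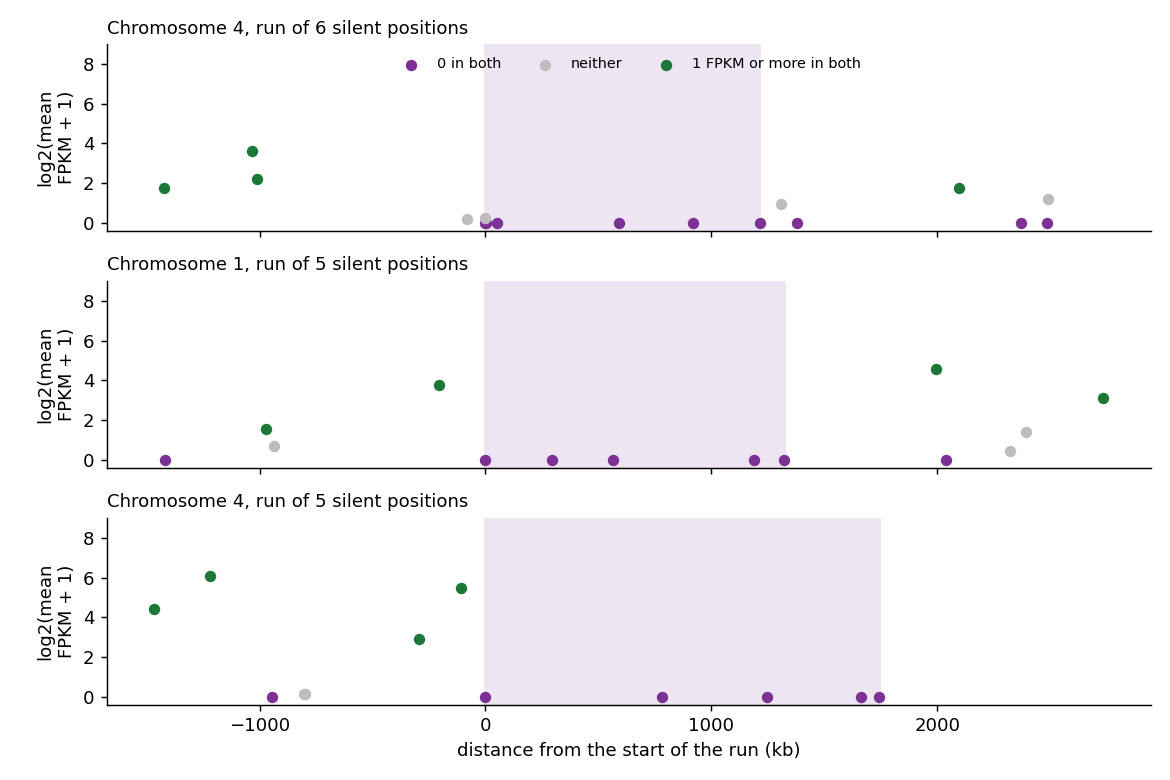
Listed positions of 500 bp or more in and around the 3 longest runs of silent positions, drawn as points by distance in kb from the start of the run (horizontal axis) and log2 of the mean FPKM of both libraries plus 1 (vertical axis). Shaded stretches are the runs, of 6, 5 and 5 positions over 1216, 1326 and 1745 kb. All silent positions lie at 0, the first of the run of 6 partly hidden by the intermediate locus before it, and expressed loci (green) appear beyond the runs, except after the last, where the next listed locus lies outside the stretch drawn.

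Among the 23 runs of 4, extents differed by far more than the number of loci did. The most compact lay at 240772557 to 240797994 of chromosome 4 and packed its loci, of 2113, 2026, 1904 and 3068 bp, into 25.4 kb. Its flanks were low as well, at 0.860 FPKM (rea1) and 1.07 FPKM (WT) before it and 0 and 0.040 FPKM after it. The next most compact, at 175865862 to 175984859 of chromosome 7 and 7216613 to 7353040 of chromosome 10, covered 119 and 136 kb. The widest, at 48085469 to 50923437 of chromosome 10, covered 2838 kb and included a locus of 41797 bp. The run at 87706649 to 88915264 of chromosome 2 covered 1209 kb and held neighbours of equal span, 1271 bp each, at 88722910 to 88724180 and 88727801 to 88729071, with a gap of 3620 bp.

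Neighbouring silent loci of like span were few, at a share whose interval overlaps that of expressed pairs. Spans within 5% of each other, which adjacent copies of a gene can have, were found for 27 of 426 neighbouring silent pairs, or 6.34% (4.39 to 9.06). The share was 4.94% (4.06 to 6.01) of 1902 neighbouring expressed pairs and 2.39% (1.74 to 3.28) of 1548 pairs of a silent and an expressed position. Silent and expressed positions differ in span, which by itself lowers the last share. How often spans within each class would match by themselves was not computed. At gaps under 5 kb, 6 of 60 silent pairs (10%, 4.66 to 20.1) and 31 of 514 expressed pairs (6.03%, 4.28 to 8.43) were of like span. Besides the equal pair on chromosome 2, these included loci of 1175 and 1199 bp at 37309818 to 37310992 and 37313017 to 37314215 of chromosome 4. Loci of 742 and 771 bp lay at 224113970 to 224114711 and 224115451 to 224116221 of chromosome 2. Whether such loci share sequence was not tested.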

How the data were processed

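The authors deposited 1 file per genotype with an FPKM value for each of 12140 rows, named as FPKM per the file headers. Bowtie 0.12.2 is named in the submitters' processing notes. The program that estimated FPKM, the build, the annotation, any filter and the treatment of replicates are unknown here (not given in the sources used here). No counts or depths were analysed, so the precision of a 0 is unknown beyond the lowest values above 0.

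Values were used as deposited, with no pseudocount. Starts were read as counting from 0, only because end minus start was a multiple of 3 more often than it left a remainder of 1 or 2. This reading is uncertain. Scaffold rows (13) were left out. Rows were the unit for spans and chromosome shares, and distinct positions for gaps, neighbours and runs. Shares expected from span classes are the overall silent share of each class, weighted by the classes present. Shares carry Wilson, differences Newcombe and medians order-statistic intervals. Members, classes and comparisons were chosen with earlier results of these data known. The comparison of middle and end segments, the 5 kb gap, the 0.15 FPKM limit and the choice among runs of 4 (the 3 most compact and the 2 widest) followed the values. Loci given by position were otherwise the longest runs, the longest and most isolated silent loci, those at the limits of the rule, and the most abundant expressed locus between silent neighbours. Silent rows with an abundant partner and neighbours of like span were named after their values were seen. Code was tested on simulated data. The software was Python 3.11.15 with pandas 2.3.3, numpy 2.4.6, matplotlib 3.10.9 and scipy 1.17.1.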

Additional observations from a re-analysis of the deposited data

How the results depend on the processing

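Differences in span, gap and neighbours between silent and expressed loci, and between middle and end segments, kept their direction in 45 of 45 recomputed values. Alternatives for the gap to the nearest locus gave 1.94-fold to 3.01-fold, against 2.40-fold. They stayed within the wide limits of 1.74 to 3.30, taken from the outer limits of the medians. For the middle against the end segments they gave 4.32 to 6.15 points, within the interval of the reported value. The range of silent shares between chromosomes was 4.56 points and ran from 3.53 to 6.46. It takes the highest and the lowest chromosome anew each time, so it is above 0 by construction. With minimum spans of 300, 1000 and 2000 bp, the silent share was 21.5%, 16.3% and 12.5%, the span ratio of expressed over silent loci 2.95, 1.89 and 1.28, and the share of silent positions with a silent neighbour 39.8%, 31.7% and 24.2%. Silent loci defined as below 0.1 FPKM in both libraries gave 24.8%, 2.14 and 46.2%, and a neighbour difference of 4.46 points. With the limit of 0.15 FPKM, added after seeing the data, these were 28.1%, 2.08, 51.8% and 5.63 points, and 12.6 points under 5 kb. A 0 in rea1 alone or in WT alone gave silent shares of 28.1% and 28.8%. The span ratio was 2.26 against loci above 0 in both libraries and 2.91 against loci at 10 FPKM or more. Neighbours within 20 kb differed by 4.68 points. The neighbour difference was lowest, at 1.97 points, with a minimum span of 2000 bp (0.16 to 3.93) and against loci above 0 in both libraries (0.58 to 3.40), and under 5 kb it was lowest at 5.70 points (0.62 to 13.4) with a minimum of 2000 bp. Ordering loci of every span put 41.8% of silent positions beside a silent neighbour. Looser definitions raise the number of silent loci by construction, and runs lengthen with it. No listed positions overlap, so leaving out overlapping neighbours tests nothing, and its values, counted among the 45, could not have reversed. No paired analysis was possible because there is a single library of each genotype, and neither could be left out, since the rule needs both.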
